A study of Mus musculus with 4 samples.

Results

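Gm10800 and 9 other RNAs grouped with it as repeat transcripts (Gm10801, Gm10715, Gm10717, Gm10718, Gm10719, Gm10720, Gm10722, Gm21738 and Gm11168) were followed through a map of RNA contacts in mouse spermatogonial stem cells. The 10 RNAs were picked by name, with their contact counts in these libraries known, so their large counts and their contacts with each other describe the choice and were not tested. They are 10 of 13318 RNAs in the table, and 183 of its 56636 pairs held at least 1 of them. Spermatogonial stem cells self-renew in the testis and are the source of sperm. The 4 libraries were 2 controls (genotype label WT) and 2 with the genotype label Differentiation, titled as treated; no agent, duration, age or strain was given in the sources used here. Contacts were measured by RIC-seq, in which formaldehyde fixes RNA and protein in place, cut RNA ends that lie close together are joined, and each joined (chimeric) fragment is counted for the pair of RNAs it holds.

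Mouse gene models of the Gm10800 kind are known to lie over copies of the major satellite. This tandem repeat fills the chromatin beside mouse centromeres, is packed as heterochromatin marked by methylated histone H3 and HP1 proteins, and can be transcribed from both strands. The copies are close to identical, so a read from one copy cannot be placed with certainty. Where the 10 RNAs lie over such copies, the name a count carries is uncertain, and so is every split of counts by name below. Neither sequences nor positions of the 10 were found in the reference gene and promoter tables used here (0 of 10 matched), so no sequence is shown and their make-up as satellite was not tested.

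The table listed only pairs with at least 1 count in each of the 4 libraries, and its totals were 1209031 and 1400011 counts for controls against 793129 and 1155923 for differentiation libraries. Whether the 2 libraries of a group came from separate cultures was not given, so a p-value here sets a difference only against variation among these libraries, and that variation may be technical. Summed contact totals of the germ line markers were 4507 and 4981 CPM (counts scaled to library size by edgeR) for controls against 4267 and 3785 CPM for differentiation libraries. Of 14 markers 12 were listed, and Id4 and Nanos2 were not. The sum was over the 10 that could be tested, without Nanos3 and Sall4. Most of this sum was Tex14 (3716, 4064, 3971 and 3511 CPM), and without it, a choice made after its values were seen, the sums were 791 and 917 CPM against 296 and 275 CPM. In controls most of what was left was 1 gene, Shisa6, with 544 and 638 CPM against 141 and 105 CPM in differentiation libraries. Fitted log2 differences were positive for Dazl (0.88), Ddx4 (0.86) and Stra8 (0.40), without passing the test, and negative for the other germ line markers tested. Sertoli cell markers summed to 864 and 993 against 561 and 516 CPM (7 of 8 listed, Amh not), and fibroblast markers to 1408 and 1317 against 853 and 979 CPM (7 of 9 listed, Dcn and Lum not). Leydig and peritubular markers summed to 209 and 220 against 210 and 208 CPM (4 of 6 listed, Cyp17a1 and Insl3 not). Of the markers that could be tested, 2 of 10 of the germ line (Shisa6, −2.27, and Gfra1, −1.20 in log2), 4 of 7 of Sertoli cells (Inha, −3.11, Clu, −1.26, Gata4, −1.002, and Wt1, −0.53) and 4 of 7 of fibroblasts (Fbn1, −1.39, Pdgfrb, −1.34, Col3a1, −1.20, and Col1a1, −0.67) fell by the edgeR test described with the contact totals, and none rose. All 4 listed Leydig and peritubular markers were tested, and 0 passed. Of all RNAs 5.44% were called higher and 6.75% lower. None of these markers had a listed pair with any of the 10 RNAs, and the part of cell mixture in the results was not tested.

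The 10 RNAs were joined mostly to each other. Pairs that held any of them had 46556 counts in control 1, 15010 in control 2, 69616 in differentiation 1 and 27460 in differentiation 2. This was 3.85% of all counts in control 1 (95% Wilson interval 3.82 to 3.89), 1.07% in control 2 (1.06 to 1.09), 8.78% in differentiation 1 (8.72 to 8.84) and 2.38% in differentiation 2 (2.35 to 2.40). The share was 2.46% ± 1.96 (SD, n = 2) in controls and 5.58% ± 4.53 (n = 2) in differentiation libraries, and the groups overlapped. Of the counts of these pairs, those that joined 2 of the 10 made up 89.2% in control 1 (88.9 to 89.4), 89.9% in control 2 (89.4 to 90.4), 91.7% in differentiation 1 (91.5 to 91.9) and 90.7% in differentiation 2 (90.4 to 91.0). The amount thus varied widely from library to library while the proportion of contacts within the family stayed between 89.2% and 91.7%. Intervals cover counting error only, as reads from PCR are not independent molecules. An exact permutation test of 2 against 2 libraries cannot reach the 0.05 threshold.

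**Figure D1:**
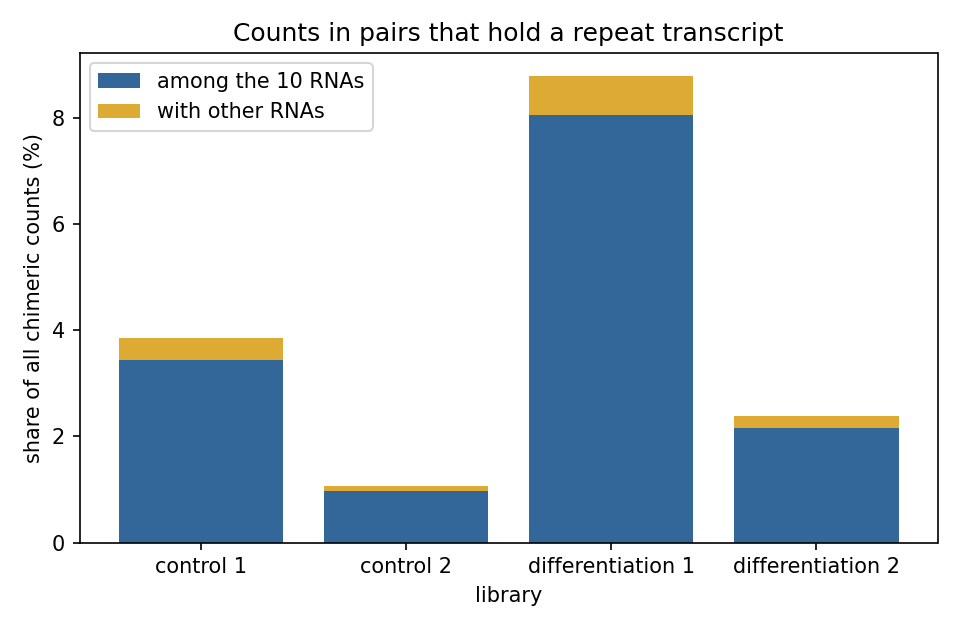
Share of all chimeric counts (%, y axis) in pairs that hold any of the 10 RNAs, for each library (x axis), with counts among the 10 below and counts with other RNAs above. The bars run from 1.07% in control 2 to 8.78% in differentiation 1, and in each the lower part is the larger by far.

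Which of the 10 were joined followed a sharp pattern. Of the 45 possible pairs of different members 23 were listed, and they were all the pairs across 3 sets: Gm10800 with Gm10801, then Gm21738 alone, then the other 7 (Gm10718, Gm10722, Gm10717, Gm11168, Gm10719, Gm10715 and Gm10720). Every one of the 23 pairs across these sets was listed, from 98 summed counts up, and none of the 22 pairs within a set. So Gm10800 was joined to Gm21738 and to each of the 7, but no pair of Gm10800 with Gm10801 was listed, nor any of the 7 with another of the 7. A pair of an RNA with itself was listed for 0 of the 10. Of 1071 other RNAs with summed totals at least as large as the smallest of the 10 (1030 counts), 851 (79.5%) had such a within-RNA pair. The sets were read off the counts themselves and were not tested.

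Gm26870, Gm17535 and Gm10721, predicted RNAs outside the 10, took the place of the 7 in this pattern. Each was paired with Gm10800, Gm10801 and Gm21738, which gave 9 of 9 possible pairs, and 0 of 21 possible pairs with the 7 were listed. No pair of the 3 with themselves or each other was listed either. Contacts with the 10 made up 98.6% of all counts of Gm17535 (97.2% to 99.3% over the 4 libraries), 61.9% of those of Gm26870 (54.0% to 67.3%) and all 54 counts of Gm10721.

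**Figure D2:**
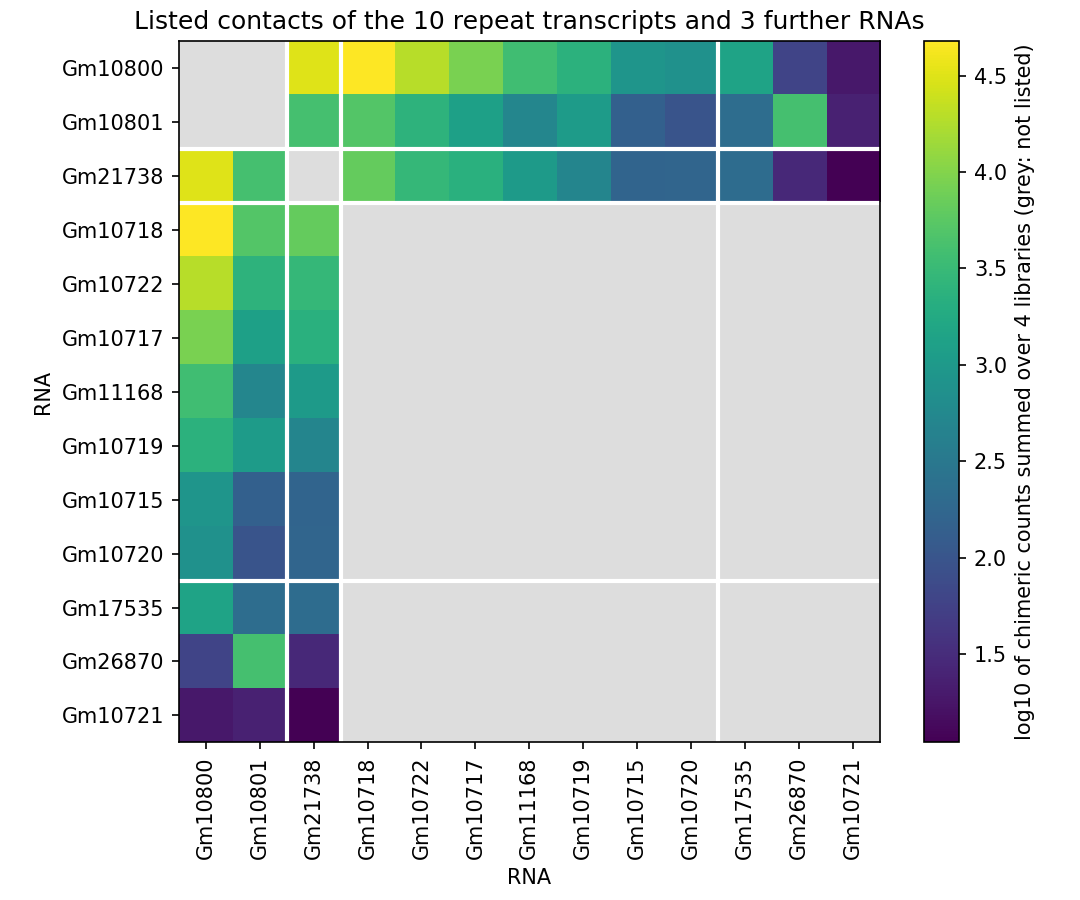
Contacts between the 10 RNAs and Gm17535, Gm26870 and Gm10721 (both axes), coloured by log10 of the chimeric counts summed over the 4 libraries, with grey for pairs that were not listed and white lines between the sets. Coloured cells fill all 23 pairs across the sets of the 10 RNAs, and grey fills all 22 pairs within them.

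The order of the names in a pair bears on where the RNAs lie, if they follow the order seen for placed RNAs. In the 24796 listed pairs of RNAs placed on different chromosomes by the RefSeq gene table (GRCm38.p6), the first name was always the one whose chromosome sorts first as text (10 before 2), with 0 exceptions. Partners named before Gm10800 reached chromosome 2 (Tshz2) and those named after it began at chromosome 3 (Egfem1). Gm21738 stood between chromosome 13 (2210408I21Rik) and chromosome 14 (Gm2237), and both Gm10718 and Gm10722 between chromosome 8 (Myo16) and chromosome 9 (Slc9a9). Gm26870 also fell between chromosomes 8 and 9. Bounds for the rest were wider, with Gm10801 between chromosomes 19 and 3, and Gm10717 and Gm11168 between 5 and 9. Gm10715 had no placed partner. Whether members of a set share a chromosome was not tested. Of 28998 placed between-RNA pairs, 786 lay under 100 kb apart or overlapped on the same chromosome, and the distances between the 10 RNAs are not known here.

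Gm10800 was the main hub of the family. Its pairs held 80.1% of the counts among the 10, and its contact total, the summed count of all its pairs, ranked as number 5 in the table. The pair with Gm10718 had 13246 counts in control 1, 4563 in control 2, 21222 in differentiation 1 and 8642 in differentiation 2. Gm10800 with Gm21738 had 9713, 2966, 13892 and 5377 counts in the same order, and Gm10800 with Gm10722 had 5436, 1798, 8655 and 3217. In all 3 pairs differentiation 1 was highest and control 2 lowest, and control 1 stood above differentiation 2. Together they made up 68.4%, 69.1%, 68.6% and 69.2% of the counts among the 10 in the 4 libraries. Gm10800 with Gm10717 followed with 2637, 751, 4037 and 1433 counts. Gm21738 with Gm10718 had 1918, 639, 2910 and 1153 counts, and Gm10801 with Gm10718 had 1417, 523, 2299 and 911. The pair with fewest counts was that of Gm10801 with Gm10720, at 98 in all. Counts were not divided by RNA length, which was not used here, so the order of pairs is an order of counts and not of levels per base.

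The make-up of this pool varied little. Gm10800 with Gm10718 took between 31.9% and 34.7% of it in the 4 libraries, Gm10800 with Gm21738 between 21.6% and 23.4%, and Gm10800 with Gm10722 between 12.9% and 13.6%. Gm10800 with Gm11168 ranged more, from 1.99% in control 2 to 2.76% in control 1. The widest range was that of Gm21738 with Gm10720, from 0.0741% to 0.138%, a ratio of 1.86 on 10 counts in control 2.

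Of the contacts with Gm10800, Gm21738 and Gm10801, those with Gm10800 were the largest part for each of the 7. For Gm10718, which had most counts, Gm10800 took 79.7% to 80.7% over the 4 libraries, Gm21738 10.8% to 11.6% and Gm10801 8.51% to 9.14%. Gm10722 was close to it, with 77.4% to 78.7% for Gm10800. Gm10719 leaned further towards Gm10801, which took 26.6% to 32.8% of its contacts, above the range of each of the other 6 in all libraries. Gm11168 gave Gm21738 18.7% to 25.9%, and Gm10717 gave it 17.0% to 21.1%. Gm10715 and Gm10720 had the fewest counts, and Gm10800 took 71.8% to 77.8% and 71.1% to 77.2% of them.

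Outside the 10, Gm17535 had 76.0% to 79.5% of these contacts on Gm10800, within the range that the 7 spanned. Gm26870 was turned the other way. With Gm10801 it had 1173, 337, 1835 and 681 counts, against 17, 5, 31 and 9 with Gm10800 and 16, 2, 5 and 6 with Gm21738, in the order control 1, control 2, differentiation 1 and differentiation 2. Gm10801 thus took 97.3% to 98.1% of these contacts in every library, and over all libraries it had 64.9 times the counts of Gm10800. For each of the 7, Gm10800 had at least 2.13 times the counts of Gm10801 over all libraries. Counts with the family were 74.7% to 77.9% of all counts of Gm10801, with Gm26870 its largest outside partner, against 93.0% to 95.4% for Gm10800 and 97.7% to 98.2% for Gm21738.

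**Figure D3:**
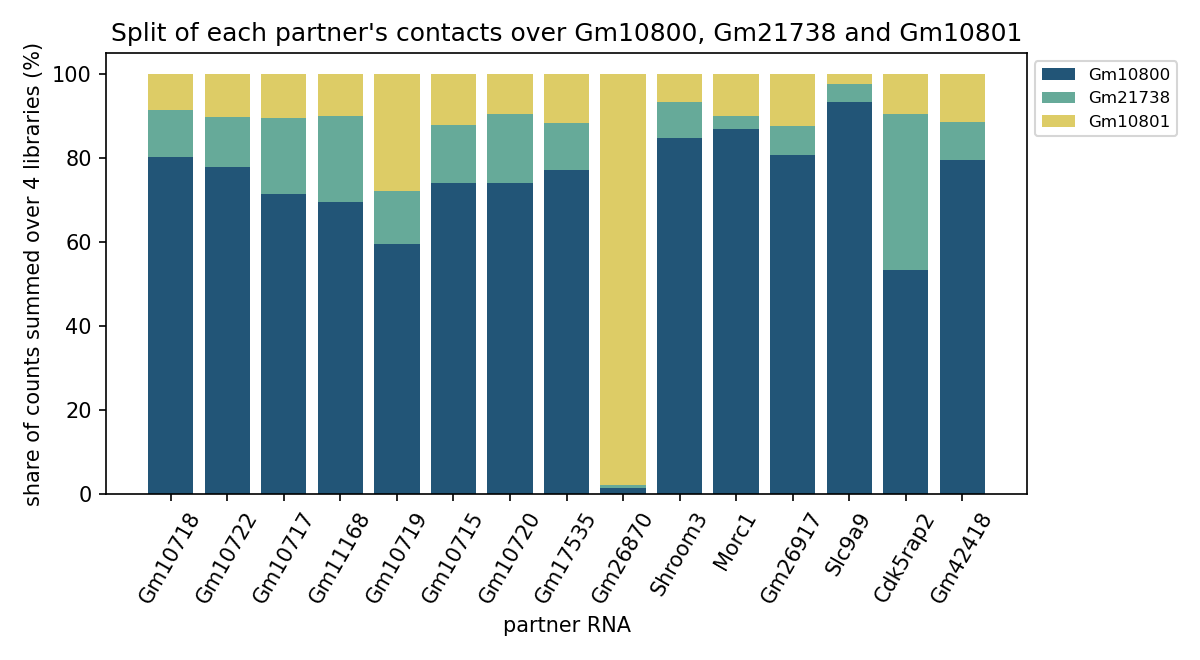
Share (%, y axis) of the counts, summed over the 4 libraries, that each partner RNA (x axis) had with Gm10800, Gm21738 and Gm10801, for the 7 RNAs, Gm17535, Gm26870 and 6 other partners. Gm10800 takes the largest part for every partner shown other than Gm26870, where Gm10801 does.

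Levels of all 10 contact totals followed the same order over the libraries, and the groups overlapped for each. The Gm10800 total was 20789 CPM in control 1, 5769 in control 2, 43646 in differentiation 1 and 11407 in differentiation 2. Differentiation 1 was highest, then control 1, differentiation 2 and control 2, and this order held for every one of the 10. The 10 totals share counts, since a pair of 2 of the 10 counts for both. Such pairs made up from 75.9% (Gm10801) to 100% (Gm10715) of a total over all libraries. A common order is therefore not 10 separate results. The Gm10718 total was 9800, 2938, 21847 and 5875 CPM in the order control 1, control 2, differentiation 1 and differentiation 2, and that of Gm21738 was 8715, 2404, 18119 and 4645 CPM. Gm10722 had 4129, 1201, 9286 and 2308 CPM, and Gm10801 had 3240, 928, 7099 and 1857 CPM. Gm10717 had 2199, 563, 4677 and 1093 CPM. At the low end Gm10720 had 171, 47.3, 380 and 93.9 CPM and Gm10715 had 201, 55.4, 428 and 111 CPM. As a ratio, libraries 1 and 2 of a group differed by 3.34 to 4.196 times in controls and 3.47 to 4.28 times in differentiation libraries, more than the fitted ratio between the groups for each of the 10. Differentiation 1 stood 1.85 to 2.25 times above control 1, and differentiation 2 1.80 to 2.10 times above control 2, for all 10, though the labels do not tie libraries of the same number together.

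**Figure D4:**
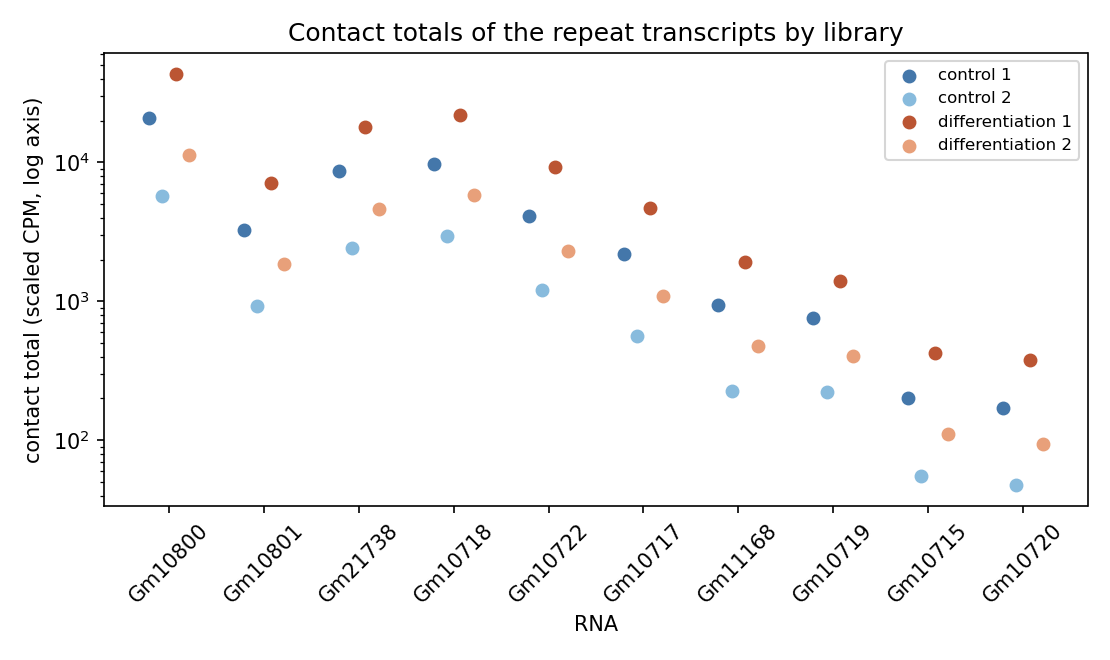
Contact totals of the 10 RNAs (x axis) in CPM (y axis, log scale), with 1 point for each library. For every RNA the points stand in the order differentiation 1, control 1, differentiation 2 and control 2 from high to low.

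The gap between libraries 1 and 2 of a group was wide for the family beside other RNAs. On the log2(CPM + 1) scale, library 1 minus library 2 ranged over the 10 RNAs from 1.74 (Gm10718) to 2.06 (Gm11168) in controls and from 1.79 (Gm10719) to 2.10 (Gm10717) in differentiation libraries. Over all 10993 RNAs tested the median of this difference was 0.00 in controls (quartiles −0.26 and 0.32) and 0.01 in differentiation libraries (−0.33 and 0.41). It was above 1 in both groups for 221 RNAs, the 10 included. Contacts with RNAs outside the family shared the gap, at 4255 and 1090 CPM for control 1 and 2 and 8232 and 2446 CPM for differentiation 1 and 2. All pairs without any of the 10 together had 0.986 and 0.951 times as many CPM in library 1 as in library 2, in controls and differentiation libraries. They held most counts of every library, so scaling to library size keeps this ratio near 1 and it could not show such a gap. These CPM, like all CPM of pairs below, were scaled to the counts of pairs (effective library size 1186500 in control 1). CPM of contact totals were scaled to the summed totals (1728300 in control 1), where a pair of different RNAs counts for both.

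The RNAs nearest to Gm10800 in pattern were sought among all tested RNAs outside the family by distance between log2(CPM + 1) totals, centred over the 4 libraries. Gm26870 (distance 0.12) and Gm17535 (0.14) came first, and both shared counts with the family. Abcc2 (0.15), Naip5 (0.18) and Aass (0.18) followed on 22, 66 and 24 summed counts and had no listed pair with the family. Within the family the distances ran from 0.01 (Gm10715) to 0.20 (Gm10719), between totals that share most of their counts with other members.

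No contact total of the 10 passed the test of differentiation against control. The test was the quasi-likelihood F test of edgeR with Benjamini-Hochberg adjustment over all RNAs at an adjusted p under 0.05. The Gm10800 total was 13279 ± 10621 CPM (SD, n = 2) in controls and 27527 ± 22796 CPM (n = 2) in differentiation libraries, a log2 difference of 1.05 (SE 0.56, adjusted p = 0.260 in edgeR). Over the 10 the fitted log2 differences lay between 0.87 (Gm10719) and 1.12 (Gm10718), with a median of 1.06 against 0.00 over all RNAs, and adjusted p from 0.213 to 0.326. By this test 0 of the 10 were called, where 12.2% of all RNAs tested were. An unadjusted p under 0.05 was found for 0 of the 10 and for 27% of all RNAs tested. DESeq2 called 0 too. With within-RNA pairs left out edgeR also called 0, but all 10 had an unadjusted p under 0.05, beside 2607 of 9648 RNAs tested. With the replicate number as a block edgeR called all 10 higher, beside 942 of 10993 RNAs, though the labels do not tie the numbers together. Without differentiation 1 the Gm10800 difference was −0.18 (adjusted p = 0.643), a comparison of the lower differentiation library with both controls. Without differentiation 2 all 10 totals were called higher, with 1.72 for Gm10800 (adjusted p = 2.48e-06). Contact totals move with the amount of RNA and with the cells in the sample as well as with contacts, and fewer cells of a type cannot be told apart from less RNA per cell.

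Single pairs gave a like result. All 23 pairs among the 10 had counts enough for the test. Their fitted log2 differences lay between 1.08 and 1.86, with a median of 1.34 against 0.02 over all pairs. None passed (edgeR adjusted p from 0.0777 to 0.273), where 5.24% of all tested pairs were called. An unadjusted p under 0.05 was found for 22 of the 23, and for 20.7% of all tested pairs. The 23 pairs share RNAs and libraries and kept a like make-up, so these are not separate results. The number also depended on the test. Of the 110 tested pairs with any of the 10, 36 had an unadjusted p under 0.05 in edgeR, 8 with a robust dispersion and 2 in DESeq2. Over all 31688 tested pairs the numbers were 6551, 6537 and 3375. For Gm10800 with Gm10718 the levels were 7218 ± 5579 and 19222 ± 15478 CPM of pairs (log2 difference 1.41, SE 0.45, adjusted p = 0.0784 in edgeR). CPM and log2 differences of pairs are on another scale than those of contact totals. This pair therefore stands above the mean Gm10718 total of 6369 and 13861 CPM, of which it is a part. For Gm10800 with Gm21738 the difference was 1.27 (SE 0.48, adjusted p = 0.134), and for Gm10801 with Gm26870 it was 1.405 (SE 0.51, adjusted p = 0.120). Of the 183 pairs with any of the 10, 110 had counts enough for the test, and 0 were called higher (36 had an unadjusted p under 0.05 in either direction), beside 2.85% of all pairs. Without control 1 the number was 47 and without differentiation 2 it was 53, while without differentiation 1 it was 0, and the pair of Gm10800 with Gm10717 had −0.01.

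Contacts with RNAs outside the family were 160 pairs with 89 partners. Of these partners 69 were joined to only 1 of the 10, and 9 to 5 or more. Gm10800 had 68 of the 160 pairs, Gm21738 20, Gm10718 18 and Gm10801 14, while Gm10720 had 1 and Gm10715 none. The 10 partners with most counts held 87.2% of the outside counts. After Gm26870 and Gm17535 these were Shroom3, an actin-binding regulator of cell shape, with 1739 counts, and Morc1, a germ-cell gene that acts in silencing of transposons, with 1445. Then came Gm26917 (1173 counts), Cdk5rap2, which encodes a centrosome protein (664), and Slc9a9, which encodes a sodium-proton exchanger (647). The protein-coding gene 2210408I21Rik (522), the abundant RNA Gm42418 (458) and the noncoding RNA Gm12153 (387) closed the list.

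Some of these partners had most of their contacts with the family, and others only a small part. Contacts with the 10 made up 63.7% of all counts of Morc1 (45.5% to 69.5% over libraries), 58.7% of those of 2210408I21Rik (28.1% to 80.1%) and 27.2% of those of Cdk5rap2 (11.98% to 44.5%). They made up 2.72% of those of Shroom3, 1.41% of those of Gm12153, 0.240% of those of Gm26917, 0.225% of those of Slc9a9 and 0.0933% of those of Gm42418. Morc1 lies on chromosome 16 at 48431237 to 48630905, Shroom3 on chromosome 5 at 92683435 to 92965759 and Cdk5rap2 on chromosome 4 at 70216855 to 70410435 (GRCm38.p6). Which part of these genes was joined was not given in the table.

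To set contacts with an RNA against its abundance in the table, each count was divided by an expected count. The expected count came from the totals of the family and of the partner in the same library. A value of 1 means in proportion to both totals. The family total includes contacts of its members with each other, and only 8.32% to 10.8% of it were contacts with outside RNAs. A value under 1 therefore does not mean fewer contacts than a typical outside RNA had. For Slc9a9 this value was 0.0613 in control 1, 0.0654 in control 2, 0.0685 in differentiation 1 and 0.0628 in differentiation 2. For Gm12153 it was 0.402, 0.373, 0.402 and 0.374. For both partners it varied little while the family's own share of the library ran from 1.07% to 8.78%. It varied more for others: in the same order it was 0.115, 0.0990, 0.0350 and 0.0687 for Gm26917, 0.0400, 0.0399, 0.0167 and 0.0266 for Gm42418, 0.182, 0.143, 0.0747 and 0.119 for Cdk8, and 0.105, 0.125, 0.0326 and 0.0804 for Rmrp. Shroom3 lay between 0.671 and 0.885. For Cdk5rap2 it lay between 5.07 and 11.2 and for Morc1 between 7.91 and 42.4, and for these the family itself makes up much of the partner's total. The value cannot exceed that of an RNA with all its counts in the family. Gm10721 was such an RNA, with 26.0, 93.3, 11.4 and 42.1 in the same order. The ranges of Cdk5rap2 and Morc1 cannot be read apart from this cap.

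Set against contacts within the family, several partners had fewer counts in the differentiation libraries. Of the 20 partners with at least 50 counts, 8 had both controls above both differentiation libraries on this scale (Gm26917, Gm42418, Morc1, Cdk8, Myo16, Mdga2, Rmrp and Neat1), 1 was the other way (Gm17535) and 11 overlapped. Per 1000 counts among the 10 there were 14.2 counts with Gm26917 in control 1 and 13.8 in control 2, against 3.38 in differentiation 1 and 7.27 in differentiation 2. The groups did not overlap, and the mean of controls was 2.63 times that of differentiation libraries. With Gm42418 there were 4.58 and 5.34 against 1.93 and 2.93, again without overlap. The scale moves with its denominator, the counts among the 10, whose mean in CPM of pairs was 2.57 times as high in differentiation libraries. All 20 partners share this denominator, so the 8 are not separate results. No share over all RNAs was taken to set beside the 8 of 20. In CPM of pairs, contacts of the family with Gm42418 were 160 and 51.7 in controls against 175 and 69.9. Those with Gm26917 were 497 and 133 against 307 and 173. As a mean, differentiation libraries had 1.67 times the CPM of controls for Morc1, 1.71 for Cdk8, 2.12 for Myo16 and 1.78 for Mdga2. This ratio was 1.16 for Gm42418, 1.05 for Rmrp, 0.762 for Gm26917 and 0.0870 for Neat1. In CPM the groups overlapped for each of the 8 other than Neat1. Per 1000 counts among the 10, Slc9a9 had 5.13 and 4.15 against 4.23 and 4.34, and Gm26870 29.1 and 25.5 against 29.3 and 27.9, and both overlapped. Shroom3 had 15.6 and 11.2 against 9.59 and 13.2, and Morc1 13.2 and 10.9 against 7.63 and 10.6. All pairs of Gm26917 together held 11.0% and 12.5% of the counts of the control libraries and 8.86% and 9.59% of those of the differentiation libraries. For Gm42418 these shares were 10.2%, 12.01%, 10.6% and 9.99%. With 2 libraries a group these ratios were not tested. The single pair of Gm26917 with Gm10800 had 393, 112, 132 and 121 counts and did not pass as a change in level (log2 difference −0.44, SE 0.43, edgeR adjusted p = 0.623), and the difference was 0.91 without control 1 and −0.82 (adjusted p = 0.0303) without differentiation 1.

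**Figure D5:**
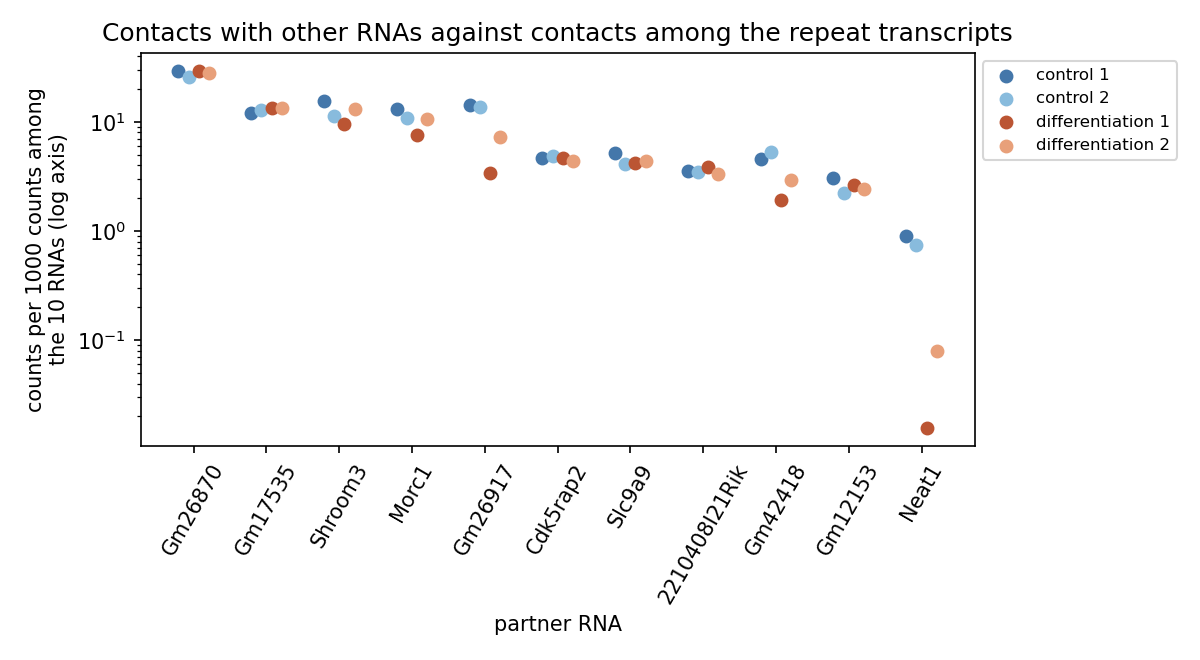
Counts of 11 partner RNAs (x axis) with the family per 1000 counts among the 10 RNAs in the same library (y axis, log scale), with 1 point for each library. Both differentiation points lie below both control points for Gm26917, Gm42418, Morc1 and Neat1 and above them for Gm17535, and the points overlap for Gm26870, Shroom3, Cdk5rap2, Slc9a9, 2210408I21Rik and Gm12153.

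Only 1 tested pair of the family was called in either direction, and it fell. Neat1 is a long noncoding RNA around which paraspeckles form. Its pair with Gm10800 had 37 counts in control 1 and 10 in control 2, against 1 in differentiation 1 and 2 in differentiation 2. The groups did not overlap. Controls together had 47 counts and differentiation libraries 3. Divided by the effective library sizes, controls had 10.6 times the level of differentiation libraries, with an exact 95% counting interval of 3.42 to 53.3. The listing of a pair requires at least 1 count in each library, and 1 and 2 counts lie at or near that floor. The pair passed the count filter of the test (minimum count 5) through its control counts alone. It was thus tested because its controls were high, and the counting interval covers neither this selection nor the floor. The change passed (log2 −3.38, SE 0.88, edgeR adjusted p = 0.0317), where 2.4% of all tested pairs were called lower. It was lost without control 1 (log2 −1.99, adjusted p = 0.285), and over all alternatives its adjusted p in edgeR ran from 5.54e-04 to 0.285. All pairs of Neat1 together held 60033 and 67545 CPM of pairs in controls against 17873 and 12861 CPM in differentiation libraries. As a mean, this was 0.241 times the control level, against 0.0870 times for the pair with Gm10800. Divided by the count expected from the totals of the family and of Neat1, the pair had 0.0135 and 0.00991 in controls. In differentiation libraries it had 0.000906 and 0.00627, on 1 and 2 counts. The part of the Neat1 total in the result was not tested.

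Abundant RNAs outside the family differed in the same measures. Gm42418 had 8422 listed pairs, Gm26917 7584 and Slc9a9 7834, against 76 for Gm10800. Within-RNA contacts made up 58.0% to 61.1% of Neat1 counts over the 4 libraries and 0.135% to 0.319% of those of Slc9a9. Gm42418, Gm26917 and Malat1, like the 10, had no listed within-RNA pair, so that lack was not confined to the family.

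Genes for proteins that bind, silence or organise pericentromeric chromatin were looked at beside the family. Of 42 such names 36 were in the table and 35 could be tested as contact totals, and 2 rose and 0 fell, with a median log2 difference of 0.05. The 2 of 35 that rose stand beside 5.44% of all RNAs called higher, a share close to theirs. Hmga1, which encodes an architectural protein that binds AT-rich DNA, rose by 1.46 (SE 0.24, edgeR adjusted p = 0.00229). Uhrf1, which encodes a reader of methylated histone and DNA, rose by 1.09 (SE 0.23, adjusted p = 0.0105). The Hmga1 call was lost without control 2 (log2 1.36, adjusted p = 0.101). That of Uhrf1 was lost without control 1 (0.82, adjusted p = 0.166) and without control 2, where the difference was larger (1.44, adjusted p = 0.0648). No RNA of this list, which includes the HP1 genes Cbx1, Cbx3 and Cbx5 and the methyltransferase gene Suv39h1, had a listed pair with any of the 10.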

How the data were processed

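RNA contacts were counted in 4 libraries of mouse spermatogonial stem cells. Per the labels, fixed cells were treated with micrococcal nuclease, RNA ends received pCp-biotin and nearby ends were ligated before strand-specific libraries were made. The deposited table gave whole-number counts of chimeric reads for each pair of RNAs, with no normalization, per the file headers and values. The submitters' processing notes list STAR and GRCm38 and give neither a role. How chimeric reads, overlapping genes and reads with several matches were treated is not given in the sources used here, and the placing of repeat reads bears on every value of the family.

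Each pair name was split into its 2 RNAs. The 10 members, the lists and the rule for named genes were chosen with earlier results of these data known. The rule named all members, their 3 largest pairs, the 10 outside partners with most counts, called pairs, the 5 RNAs nearest to Gm10800, up to 4 called genes of a list, and 5 abundant RNAs for comparison. Selection of Gm10721, and of bounds from the order of names, was made after values were seen. Pairs and contact totals (a within-RNA pair counted once) were tested over the whole table with edgeR 4.0.16 in R 4.3.3 (quasi-likelihood F test, TMM, filterByExpr with minimum count 5 and minimum total 10, two-sided, group only). On simulated counts the test recovered 39% of pairs changed by 2 and 96% of those changed by 4 on the log2 scale (31688 pairs), and 87% and 100% of totals (10993 RNAs). Simulated features all had the same spread between libraries (a coefficient of variation of 24.9% for pairs and 18.7% for totals). The family varied more than most RNAs within a group, so these rates do not apply to it. Alternatives were other scalings (RLE, column totals, TMM without the family), no or the default filter, DESeq2 1.42.0, a robust dispersion, a replicate block, removal of identical or within-RNA pairs and of each library in turn. The reference gene table (GRCm38.p6) was used for positions of partners.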

Additional observations from a re-analysis of the deposited data

How the results depend on the processing

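With 2 libraries a group and the 1-count minimum for listing, precision was limited by the spread between libraries. Scaling by RLE, column totals or TMM without the family, a robust dispersion, and 1 of each set of identical pairs changed neither direction nor call of the 45 single RNAs and pairs followed. With the replicate number as a block, 35 pairs and 10 contact totals of the family were called higher and 37 of the 45 gained a call (Gm10800 1.03, adjusted p = 1.11e-07). The correlation of same-numbered deviations was 0.02 over pairs and 0.14 over totals, and the labels do not tie the numbers together. Scaling by column totals shifted the median log2 difference to −0.12 over all pairs and 0.16 over all RNAs, and the whole-table calls from 902 higher and 760 lower pairs to 626 and 1003, and from 598 and 742 totals to 780 and 458. With no filter 30 pairs were called higher. Pairs called lower numbered 0 under the default filter, DESeq2 and without pairs of Neat1, Gm26917 or Gm42418 (chosen after seeing the data), where the Neat1 pair was not tested or had no adjusted p. The cause of the other moves was not tested. Over fits without 1 library, pairs called higher ranged from 0 to 53, pairs called lower from 0 to 2, and totals called higher from 0 to 10. The log2 difference of Gm10800 ranged from −0.18 to 2.25. The other totals ranged from −0.16 to 2.27 (Gm10715), −0.30 to 2.36 (Gm10717), −0.080 to 2.24 (Gm10718), −0.24 to 2.01 (Gm10719), −0.17 to 2.30 (Gm10720), −0.17 to 2.27 (Gm10722), −0.13 to 2.27 (Gm10801), −0.26 to 2.40 (Gm11168) and −0.22 to 2.24 (Gm21738). Pairs of Gm10800 ranged from −0.63 to 2.37 (Cdk5rap2), −0.0068 to 2.72 (Gm10717), −0.011 to 2.45 (Gm10719), −0.0013 to 2.54 (Gm10720), −0.020 to 2.88 (Gm11168), −0.018 to 2.77 (Gm26870), −0.054 to 2.52 (Shroom3), −0.22 to 2.48 (Slc9a9), −0.0015 to 2.54 (Gm21738), −1.13 to 0.91 (Gm26917), −0.61 to 1.14 (Gm42418) and −0.072 to 2.23 (Morc1). Pairs of Gm21738 ranged from −0.18 to 2.42 (Gm10717) and −0.016 to 2.36 (Gm11168). Over between-RNA pairs only, by construction, the family's share was 4.83% in controls and 10.9% in differentiation libraries. Without Gm10800 the share of contacts within the family was 77.0% and 78.7%.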

Other observations

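Contacts with RNAs outside the family made up 10.8% and 10.1% of its counts in controls against 8.32% and 9.30% in differentiation libraries. Without the pairs of Gm26917 these shares were 9.70% and 8.99% against 8.03% and 8.70%. Myo16 and Mdga2, with 142 and 94 counts with the family, gave it 53.2% and 33.7% of their own counts. Traf3ip3, on 34 counts, had no listed contact with any other RNA. The same held for Gm10721 (54 counts), Unc13c (37 counts) and several partners with fewer counts. Rmrp, the RNA of RNase MRP, had 35, 14, 17 and 18 counts with the family in control 1, control 2, differentiation 1 and differentiation 2. These partners were chosen after their values were seen.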
